A study of Mus musculus with 11 samples.

Results

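Immediate early genes, which cells switch on within minutes of a stimulus and without making new protein first, were read in injured mouse arteries with and without the transcription factor Nrf3. The set was fixed by symbol as 36 genes, and all 36 were found among the 48897 genes of the count table. All 36 passed the filter on low counts, so every member was tested.

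The arteries were removed 7 days after injury from Nrf3-/- mice and from flox mice that served as controls. Wire injury of the femoral artery gave 3 control and 3 knockout libraries, and ligation of the carotid artery gave 3 control and 2 knockout libraries. The comparisons ask how Nrf3 loss shifts gene expression in each injured vessel. The labels give no strain, age, sex, deleted exon or Cre driver, they describe no uninjured artery, and they do not say that replicates are separate animals. The p-values therefore measure the spread between these libraries, which may be technical.

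Depth was high and similar, at 43698644 to 55998563 counts per library, although the 5 knockout libraries were all smaller than the 6 control libraries. Nfe2l3, the gene that encodes Nrf3, had 37 to 85 counts in the controls and 0 to 11 in the knockouts. Markers of contractile smooth muscle, the defining cell of the arterial wall, summed to 7369 to 15018 CPM over 8 genes. CPM are counts scaled to the size of the library, here by the trimmed mean of M-values. In whole tissue, fewer cells of a type and less RNA per cell cannot be told apart.

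Growth factors, cytokines, stretch and calcium signals reach immediate early genes through MAP kinases, serum response factor and CREB, which are already present in the resting cell. The first products are transcription factors of the AP-1, EGR and NR4A families, which then drive later genes. Others close the loop: DUSP phosphatases switch MAP kinases off, and Zfp36 marks short-lived transcripts for decay. In arteries, AP-1 and Egr1 are known for their induction by vessel injury, and these transcripts are also known to respond to the handling of tissue.

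Levels differed widely between members. Per kilobase of the deposited gene length, the femoral controls had a mean of 159 CPM per kb for the small GTPase Rhob, 119 for Jund and 108 for Junb. At the other end stood Npas4 at 0.681, Nr4a2 at 2.27 and Nr4a3 at 2.39 CPM per kb. Fos was at 43.1 and Fosb at 4.91 CPM per kb in the same libraries.

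Carotid control replicate 2 stood apart from every other library in these genes. Its 36 members summed to 6144 CPM, against 3763 and 3084 CPM in the other carotid controls and 2675 to 3570 CPM in the other groups. It held the highest level of all 11 libraries for 17 members, while 10.3% of all tested genes had their highest level there. Against the mean of the other carotid controls, 11 members were more than 2-fold higher in it, as were 1.22% of the 21343 tested genes. The AP-1 members Fosb (5.08-fold), Fos (4.31-fold) and Atf3 (3.58-fold) led, followed by Zfp36, Btg2, Nr4a1, Egr3, Jun, Egr1, Dusp2 and Ier2. Members did not all share this: Fosl1 (0.427-fold), Ptgs2 (0.593-fold), Npas4 and Dusp5 were lower in this library than in the mean of its group mates.

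Several other libraries leaned as a whole too. Femoral knockout replicate 1 was the highest of its group for 32 of 36 members, and for 34.2% of all tested genes. Femoral control replicate 1 was the highest of its group for 27 members, and for 32.0% of all tested genes. Carotid control replicate 3 was the lowest of its group for 24 members, with no share of all genes given here. Femoral knockout replicate 1 also had the lowest sum of contractile markers in its group, at 7863 CPM against 10742 and 14309 CPM. Femoral control replicate 1 and carotid control replicate 2 instead had the highest contractile sums of their groups, at 15018 and 13301.5 CPM. In carotid control replicate 2 the 6 Schwann cell genes summed to 1427 CPM, against 278 and 639 CPM in the other carotid controls and 208 to 413 CPM in the other groups. Its 13 heat-shock genes, which also respond quickly to stress, summed to 5324 CPM, within the 4926 to 5356 CPM of the carotid controls. The part of nerve or of contractile content in the levels of immediate early genes was not tested.

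**Figure D1:**
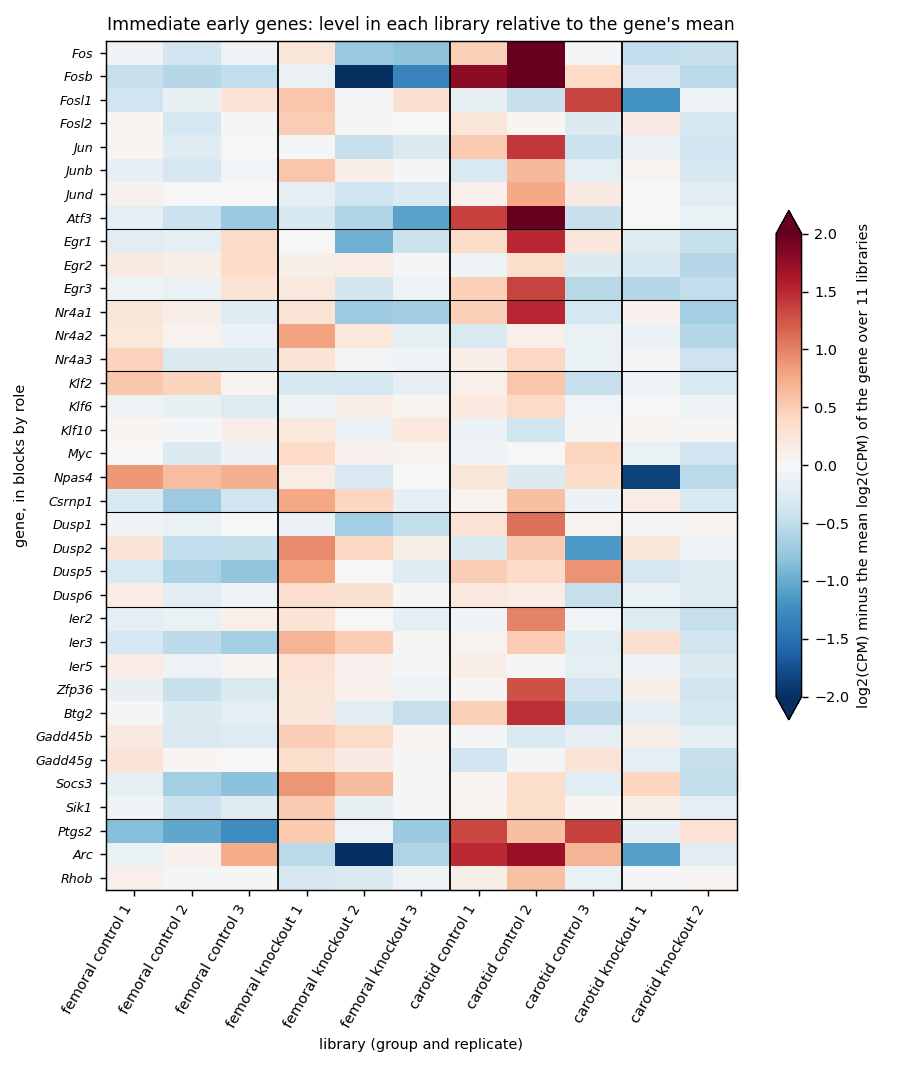
Level of the 36 genes in each of the 11 libraries, as log2(CPM) minus the gene's mean over the libraries, in blocks by role (AP-1, EGR, NR4A, other transcription factors, DUSP, feedback and effectors from top to bottom). Carotid control 2 is the darkest red column, led by Fos, Fosb and Atf3, and Ptgs2 is high in all 3 carotid controls.

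The start regions of Fos and Fosb, and of the members that differed between groups below and had an entry, are shown because CRE, CArG and EGR sequences are known routes of their induction. Sequences are from RefSeq, GRCm38.p6, the 250 bases before the annotated start, 5′ to 3′ on the gene's strand, and 28 of 36 members had an entry (for Csrnp1 and Egr2, which have several starts, the first listed). The RefSeq start can differ from the end of the deposited gene position, as for Npas4 and Fosb. Capitals mark matches, on either strand, to TGANTCA (AP-1), TGACG (a CRE half-site, contained in the CRE TGACGTCA), the CArG box, GCGTGGGCG or GCGGGGGCG (EGR) and TATAAA.
Fos, chr12:85473640-85473889, plus strand: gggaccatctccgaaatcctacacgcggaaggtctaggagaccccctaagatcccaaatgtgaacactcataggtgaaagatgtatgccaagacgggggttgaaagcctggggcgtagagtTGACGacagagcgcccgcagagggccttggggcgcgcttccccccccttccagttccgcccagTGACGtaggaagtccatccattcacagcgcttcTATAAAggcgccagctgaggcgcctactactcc
Fosb, chr7:19310046-19310295, minus strand: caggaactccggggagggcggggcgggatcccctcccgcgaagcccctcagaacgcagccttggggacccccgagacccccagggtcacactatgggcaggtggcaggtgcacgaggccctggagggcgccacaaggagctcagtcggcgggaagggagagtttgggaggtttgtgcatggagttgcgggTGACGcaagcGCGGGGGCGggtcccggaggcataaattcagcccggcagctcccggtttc
Dusp5, chr19:53528895-53529144, plus strand: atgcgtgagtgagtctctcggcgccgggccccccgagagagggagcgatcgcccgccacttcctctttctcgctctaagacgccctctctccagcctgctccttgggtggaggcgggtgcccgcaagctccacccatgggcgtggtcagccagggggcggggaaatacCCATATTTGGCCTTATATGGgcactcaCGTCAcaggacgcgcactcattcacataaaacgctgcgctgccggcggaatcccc
Npas4, chr19:4989972-4990221, minus strand: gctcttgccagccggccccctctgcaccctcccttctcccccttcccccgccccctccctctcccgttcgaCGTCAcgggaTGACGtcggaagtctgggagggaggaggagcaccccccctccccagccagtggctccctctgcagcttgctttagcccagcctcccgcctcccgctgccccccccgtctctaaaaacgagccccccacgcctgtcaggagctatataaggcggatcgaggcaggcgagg
Ptgs2, chr1:150099781-150100030, plus strand: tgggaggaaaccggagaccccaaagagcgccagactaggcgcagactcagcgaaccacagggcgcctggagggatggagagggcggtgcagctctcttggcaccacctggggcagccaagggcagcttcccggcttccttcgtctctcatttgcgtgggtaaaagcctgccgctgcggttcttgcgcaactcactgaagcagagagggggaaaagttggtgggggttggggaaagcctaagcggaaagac
Fos held the CRE half-site at 129 to 125 and at 66 to 62 bases before its start, and TATAAA at 33 to 28. Dusp5, whose product dephosphorylates ERK in the nucleus, had a pair of CArG boxes side by side, 82 to 73 and 72 to 63 bases before its start. Ptgs2 had no match to these letters in this window. Bases outside the 250 were not searched, so a gene with no match here may have these sequences elsewhere. Among the 28 members, 13 held TGACG, against 17.8% of 32851 windows of the same length over all genes, and 7 held an EGR sequence, against 3.06%. The CArG box was found in 2 (Zfp36 and Dusp5) against 1.47%, TGACGTCA in 2 (Btg2 and Dusp1) against 1.55%, TATAAA in 4 against 12.4%, and TGANTCA in none against 6.75%. These matches are letters in a window and were not read as binding.

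With Nrf3 loss 33 of 36 members had negative changes in the carotid artery, and their median log2 change was −0.43, against 0.00 over all genes tested. In the femoral artery 22 were positive and 14 negative, with a median of 0.08 (all genes −0.02). Without carotid control replicate 2, the carotid split was 28 negative and 8 positive, and the median was −0.22. Without femoral knockout replicate 1 the femoral split became 16 positive and 20 negative.

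No member passed in either vessel alone in the main fit, which had no replicate block. Passing means a p from edgeR's quasi-likelihood test of at most 0.05 after Benjamini-Hochberg adjustment over all genes. Of all genes tested, 2.51% were called in the femoral artery and 0.923% in the carotid artery. At an unadjusted p under 0.05 there were 9 femoral members (6 higher, 3 lower; 19.5% of all genes) and 14 carotid members, all lower (14.5%). Without carotid control replicate 2 the carotid count at that level was 7 (13.7% of all genes), where the femoral count was 15; the carotid count was 6 without carotid knockout replicate 1 or 2, and 21 without carotid control replicate 3. DESeq2 called 6 femoral members, with 7.8% of all genes called, namely Csrnp1, Dusp5, Ier3, Socs3 and Ptgs2 as higher and Arc as lower. In the carotid artery it called 5 as lower, with 4.13% of all genes, namely Fosb, Npas4, Dusp5, Ptgs2 and Arc. Except for the carotid count without carotid control replicate 2, the counts with 1 library left out have no share of all genes beside them. They are not read as a result about the members.

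Same-numbered femoral libraries deviated together, so the femoral comparison was also fitted with the replicate number as a block. Dusp5 (0.75 ± 0.14, adjusted p 0.0292), Socs3 (1.08 ± 0.22, 0.0352) and Ier3 (0.92 ± 0.20, 0.0478) were then called higher by edgeR, beside 5.73% of all genes. Leaving out femoral knockout replicate 3, in the fit with no block, gave 5 calls, all higher (Csrnp1, Dusp5, Ier3, Socs3 and Ptgs2), where 6.21% of all genes were called. Leaving out carotid knockout replicate 1 or 2 gave 2 (Ier3 and Socs3; 2.03% and 2.04% of all genes). Wherever a carotid knockout is left out, that group is 1 library, which is assumed to vary like the other groups. The femoral knockout libraries did not overlap the controls for 9 members on the high side and 5 on the low side, where 25.4% of all genes were free of overlap. In the carotid artery 1 member was free of overlap on the high side and 12 on the low side (31.4% of all genes).

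The difference between the vessels in the knockout effect was negative for 33 members, with a median of −0.66, and called for none in edgeR, where 1 gene of all tested was called (0.00469%). At an unadjusted p under 0.05 there were 9 members (8.5% of all genes), and DESeq2 called Dusp5 and Ptgs2 (0.78% of all genes). The unadjusted count was 16 without carotid control replicate 3, 4 without carotid knockout replicate 2, 6 without femoral knockout replicate 1, and 7 to 13 without any of the others. Without carotid control replicate 2 the median difference was −0.37. These counts with 1 library left out have no share of all genes beside them and are not read as a result about the members.

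Averaged over the vessels, 2 members fell in the knockouts, Arc and Npas4, and none rose, with 6.31% of all genes called in either direction and 2% called lower. DESeq2 called 5 as lower (Fosb, Jund, Klf2, Npas4 and Arc; 10.7% of all genes). For the fits with 1 library left out, the share of all genes called is not given here, so their counts are not read as a result about the members. The edgeR count was 0 without carotid knockout replicate 1, 6 without carotid control replicate 3, 1 without any of femoral controls 1, 2 and 3 or femoral knockouts 1 and 2, and 2 without any of the other libraries.

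Between the control arteries 3 members were higher in the carotid, Ptgs2, Dusp5 and Fosb (6.21% of all genes called, 2.99% as higher), the median difference was 0.42 and the split 28 higher to 8 lower, and 15 had an unadjusted p under 0.05, all higher in the carotid (20.2%). DESeq2 called 4 (the same genes and Atf3; 9.97% of all genes). The edgeR count was 6 without carotid control replicate 3, 2 without carotid control replicate 2 or femoral control replicate 1, and 1 without femoral control replicate 2 or 3. The unadjusted count was 6 without femoral control replicate 2, 7 without carotid control replicate 2, and 10 to 21 without any of the others. The median difference was 0.12 without carotid control replicate 2. These libraries differ in the vessel and in the injury at once, so the 2 cannot be told apart. Between the knockout arteries none was called in edgeR (4.91% of all genes), 6 were lower in the carotid at an unadjusted p under 0.05 (19.7%), and DESeq2 called Egr2 and Npas4 as lower (9.35%). The edgeR count was 1 without carotid control replicate 2 (Egr2) and 1 without carotid knockout replicate 2 (Npas4, with replicate 1 then the lone carotid knockout). The unadjusted count was 2 without femoral knockout replicate 1 or carotid knockout replicate 2, and 12 without femoral knockout replicate 3. The counts with 1 library left out are given for both vessel comparisons without the share of all genes in the same fit, and are not read as a result about the members. Each control and knockout group enters several of these comparisons, so their values are not independent.

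**Figure D2:**
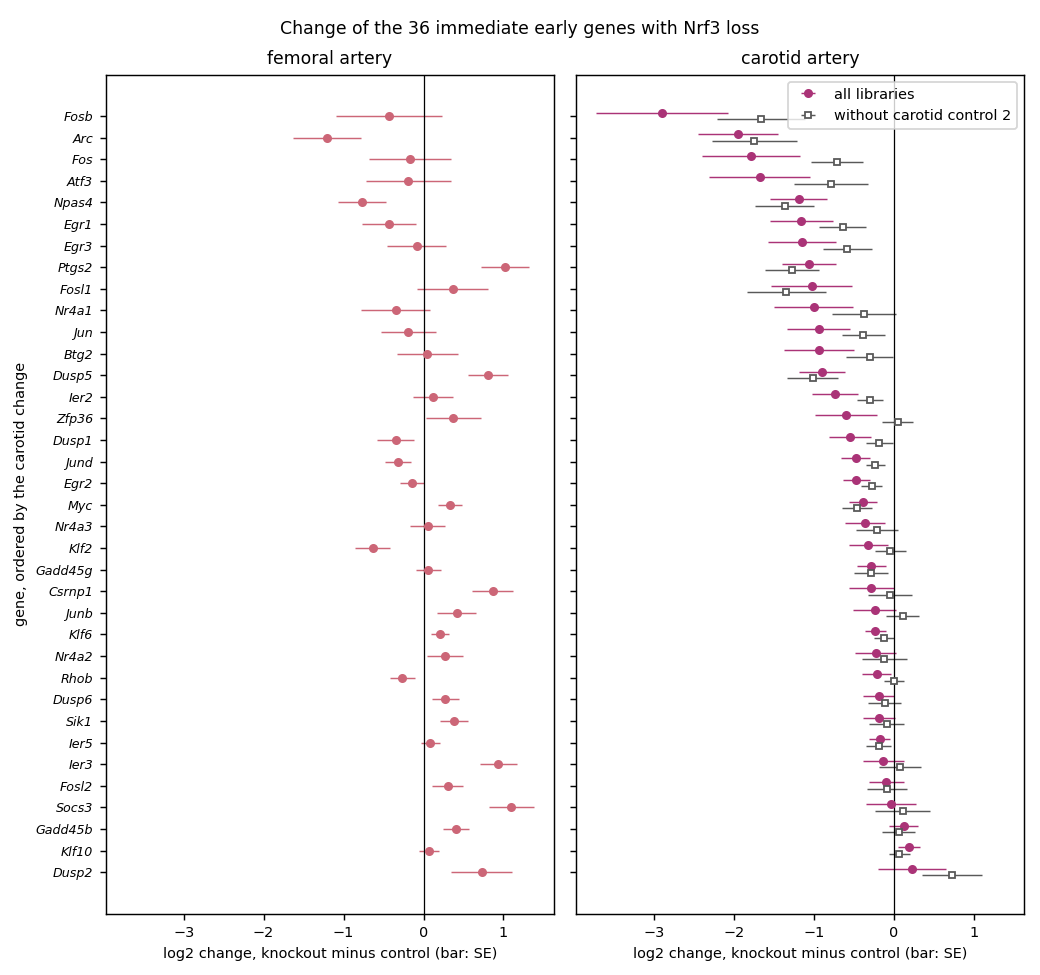
Fitted log2 change, knockout minus control, of the 36 genes in the femoral artery (left) and the carotid artery (right), with the SE as bars and genes ordered by the carotid change. Open squares repeat the carotid fit without carotid control replicate 2, where the change of Fos goes from −1.78 to −0.71 and that of Arc from −1.95 to −1.74.

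Among AP-1 members, Fos encodes the DNA-binding partner of Jun (NCBI gene 14281, on the plus strand of chromosome 12 at 85473901 to 85477269 in GRCm38). Its level was 97.6, 78.1 and 95.0 CPM in femoral controls, 121, 61.4 and 58.7 in femoral knockouts, 143, 522 and 99.5 in carotid controls and 73.1 and 75.2 in carotid knockouts. Femoral groups overlapped, both carotid knockouts lay below all carotid controls, and replicate 2 of those controls was far above the rest. The carotid change of Fos was −1.78 ± 0.61 on the log2 scale (SE; edgeR, adjusted p 0.213), and −0.71 ± 0.33 (adjusted p 0.380) without that library; the femoral change was −0.17 ± 0.51.

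Fosb, a close relative of Fos that also pairs with Jun proteins (NCBI gene 14282, on the minus strand of chromosome 7 at 19302696 to 19310226 in GRCm38), was at 20.1, 18.6 and 19.5 CPM in femoral controls, 25.2, 6.90 and 11.1 in femoral knockouts, 95.2, 334 and 36.4 in carotid controls and 22.6 and 19.0 in carotid knockouts. The femoral controls had a mean of 19.4 ± 0.749 CPM (SD, n = 3), and all 3 carotid controls lay above all 6 femoral libraries and both carotid knockouts. Between control arteries Fosb was higher in the carotid, by 3.00 ± 0.70 (edgeR, adjusted p 0.0312). The difference no longer passed once carotid control replicate 2 was left out (1.76 ± 0.49, adjusted p 0.0858), nor once femoral control 1, 2 or 3 was (adjusted p 0.0987, 0.120 and 0.100). Its carotid knockout change was −2.90 ± 0.82 (adjusted p 0.134), and −1.66 ± 0.55 without that carotid control.

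Atf3, a stress-induced partner and repressor within the family, was at 28.7, 24.4 and 19.6 CPM in femoral controls, 26.3, 21.8 and 15.6 in femoral knockouts, 84.9, 196 and 24.3 in carotid controls and 33.3 and 30.2 in carotid knockouts. Carotid controls 1 and 2 lay above every other library, and carotid control 3 lay within the femoral range. Its carotid excess over the femoral artery in controls was 2.07 ± 0.55 and missed the threshold in edgeR (adjusted p 0.0528), while DESeq2 called it. Jund, the member with steady expression in resting cells, was at 356, 334 and 339 CPM in femoral controls, 294, 254 and 276 in femoral knockouts, 356, 573 and 375 in carotid controls and 333 and 291 in carotid knockouts. In each vessel all knockouts lay below all controls, and the mean change over both was −0.40 ± 0.12 (adjusted p 0.0810). Antisense reads may enter this gene, because an unnamed gene on the opposite strand overlaps it and no strand setting for the counting is stated.

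No knockout change of the other AP-1 genes passed in either vessel. Jun was highest in carotid control replicate 2 at 437 CPM and lay between 119 and 237 CPM elsewhere, and Junb peaked there too (352 CPM). Junb was also higher in all femoral knockouts (331, 246 and 219 CPM) than in the femoral controls (201, 179 and 217 CPM), with a change of 0.42 ± 0.24 (edgeR, adjusted p 0.384). Fosl1, which encodes Fra-1, was instead highest in carotid control replicate 3, at 26.1 CPM, and lowest in carotid knockout replicate 1, at 4.45 CPM. Its counts are uncertain, since Ccdc85b overlaps it on the opposite strand with 38785 counts over all libraries against 6276 for Fosl1. Fosl2 had changes of 0.30 ± 0.19 and −0.09 ± 0.22 in the femoral and carotid artery.

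**Figure D3:**
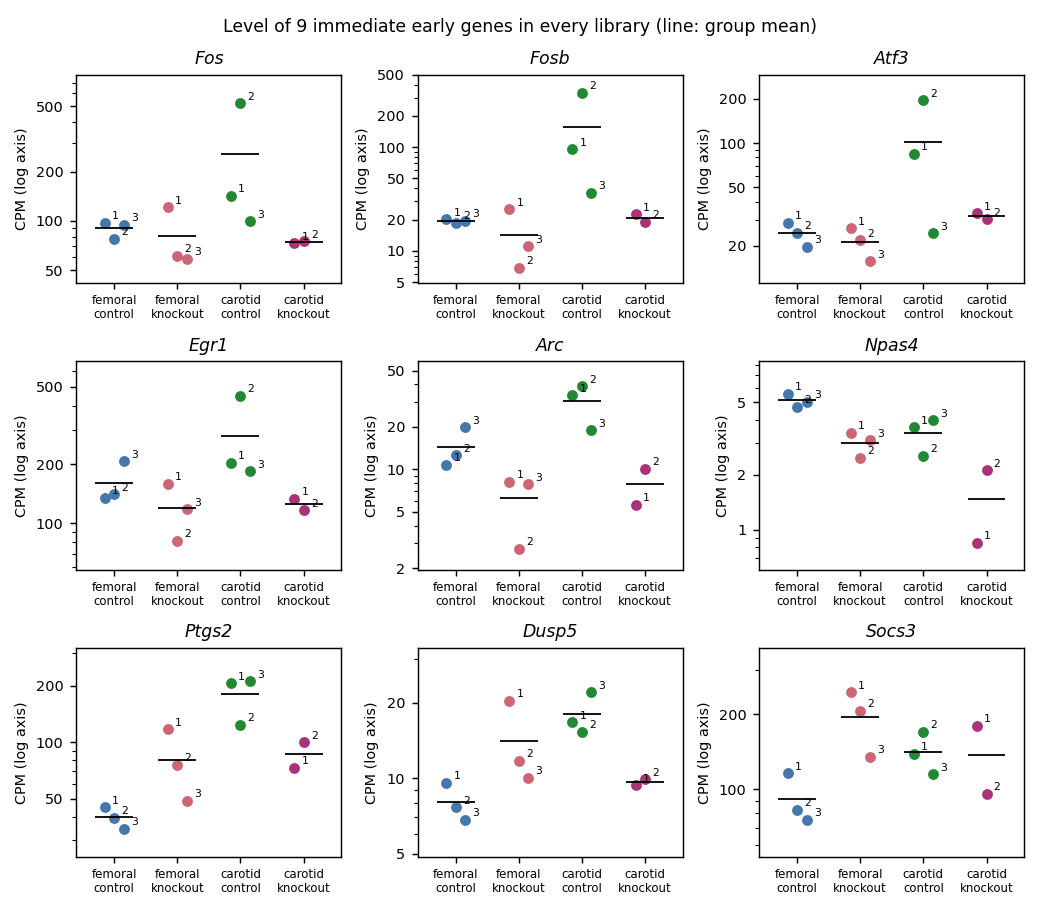
CPM (log axis) of 9 genes in every library, with the replicate number beside each point and a line at the group mean. Fos, Fosb, Atf3 and Egr1 share a peak in carotid control 2; Arc and Npas4 are lower in knockouts of both vessels; Ptgs2 and Dusp5 are higher in femoral and lower in carotid knockouts.

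EGR factors are zinc finger proteins that bind GC-rich sites. Egr1 (NCBI gene 13653, on the plus strand of chromosome 18 at 34861207 to 34864956 in GRCm38) was at 135, 140.4 and 207 CPM in femoral controls, 159.6, 81.2 and 118 in femoral knockouts, 203, 448 and 184 in carotid controls and 133 and 117 in carotid knockouts. Carotid groups did not overlap and femoral groups did, and the mean knockout change of Egr1 over both vessels was −0.79 ± 0.26 (edgeR, adjusted p 0.0976). Egr3 was at 22.8, 41.8 and 11.2 CPM in the carotid controls against 11.05 and 11.7 in the knockouts, so the lowest control lay between the knockouts. Egr2, known in nerve and immune cells, was at 50.2, 48.1 and 57.2 CPM in femoral controls, 47.8, 49.1 and 43.6 in femoral knockouts, 41.4, 56.2 and 36.8 in carotid controls and 35.1 and 29.7 in carotid knockouts. Both carotid knockouts lay below all femoral knockouts, with a difference of −0.53 ± 0.17 (adjusted p 0.106), a difference that passed without carotid control replicate 2 (adjusted p 0.0326). Ado, on the opposite strand, overlaps Egr2 with 86.0% of its counts, which leaves the Egr2 level uncertain.

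The NR4A genes encode orphan nuclear receptors. Nr4a1 was at 222 CPM in carotid control replicate 2, and at 46.7 to 107 CPM in the other 10 libraries. Nr4a2 was at 17.0, 15.4 and 13.5 CPM in femoral controls, 25.4, 16.9 and 12.95 in femoral knockouts, 11.8, 15.7 and 13.3 in carotid controls and 13.4 and 9.89 in carotid knockouts. The knockout groups overlapped, since carotid replicate 1 lay above femoral replicate 3, and the difference was −0.66 ± 0.26 (edgeR, adjusted p 0.191). An unnamed gene on the same strand overlaps Nr4a2 with 7.63% of its counts, which leaves its level uncertain. Nr4a3 lay between 11.3 and 20.6 CPM in the 11 libraries, with knockout changes of 0.05 (femoral) and −0.35 (carotid).

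Of the other transcription factors, Npas4, best known from active neurons, fell with Nrf3 loss when the vessels were averaged (NCBI gene 225872, on the minus strand of chromosome 19 at 4984353 to 5001929 in GRCm38). It had low levels throughout, 5.56, 4.72 and 5.02 CPM in femoral controls, 3.38, 2.48 and 3.09 in femoral knockouts, 3.63, 2.54 and 3.97 in carotid controls and 0.845 and 2.11 in carotid knockouts. All knockouts lay below all controls of their vessel, and the mean change was −0.98 ± 0.23 (edgeR, adjusted p 0.0367). Without carotid control replicate 2 it was −1.07 ± 0.24 (adjusted p 0.0390). With the replicate block by title numbers it was −0.97 ± 0.27 (adjusted p 0.0922) and with the muscle covariate described below −0.87 (adjusted p 0.0716), so it did not pass in either. With any of 8 libraries left out Npas4 no longer passed: femoral control 1 (adjusted p 0.0660), 2 (0.0747) or 3 (0.0724), femoral knockout 1 (0.0678) or 2 (0.0851), carotid control 1 (0.0509) or 3 (0.0769) and carotid knockout 1 (0.111). Carotid knockout replicate 1 held 41 counts of Npas4, the fewest of the 11 libraries. Without replicate 2 of that group, which leaves this library alone, its carotid change had an adjusted p of 0.0482 in edgeR.

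Klf2, induced by blood flow in endothelium, was at 139, 131 and 101 CPM in femoral controls and 77.5, 75.7 and 85.5 in femoral knockouts. Those groups did not overlap, the change was −0.64 ± 0.22 (edgeR, adjusted p 0.137), and the summed endothelial markers were 1566 to 1894 CPM in the same controls and 1280.3 to 1699 CPM in the knockouts. The part of endothelial content in the Klf2 difference was not tested. Csrnp1, a nuclear protein first found downstream of axin, was at 23.1, 17.1 and 21.5 CPM in femoral controls, 48.5, 38.3 and 25.3 in femoral knockouts, 29.8, 43.0 and 26.2 in carotid controls and 31.4 and 23.0 in carotid knockouts. Its femoral groups did not overlap (0.86 ± 0.25, adjusted p 0.0916), and its carotid groups did.

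Klf6, a zinc finger factor of injured vessels, was at 191, 186 and 172 CPM in femoral controls, 194, 225 and 213 in femoral knockouts, 235, 269 and 198 in carotid controls and 204 and 194 in carotid knockouts. All carotid controls lay above all femoral controls, by 0.35 ± 0.12 (edgeR, adjusted p 0.108). Myc, the growth regulator, was at 28.3, 23.3 and 26.1 CPM in femoral controls, 37.5, 30.1 and 30.0 in femoral knockouts, 27.1, 28.2 and 38.4 in carotid controls and 26.0 and 21.8 in carotid knockouts. All femoral knockouts lay above the femoral controls and both carotid knockouts below the carotid controls, with changes of 0.33 ± 0.15 and −0.38 ± 0.17. The difference between those changes was −0.71 ± 0.23 and did not pass (adjusted p 0.489). Klf10, higher in both carotid knockouts than in the carotid controls (0.19 ± 0.14, adjusted p 0.582), lay between 41.1 and 62.9 CPM in the 11 libraries.

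The MAP kinase phosphatases differed among themselves. Dusp5 (NCBI gene 240672, on the plus strand of chromosome 19 at 53529318 to 53541322 in GRCm38) was at 9.59, 7.65 and 6.82 CPM in femoral controls, 20.3, 11.7 and 10.01 in femoral knockouts, 16.7, 15.3 and 22.0 in carotid controls and 9.38 and 9.89 in carotid knockouts. Femoral knockouts all lay above femoral controls, and carotid knockouts all lay below carotid controls. In the controls it was higher in the carotid by 1.17 ± 0.25 (edgeR, adjusted p 0.0221). Dusp5 no longer passed with femoral control 2 left out (adjusted p 0.0927) or 3 (0.0890) or with carotid control 3 left out (0.0792), and it held without carotid control replicate 2 (0.0369). With Nrf3 loss the changes of Dusp5 were 0.81 ± 0.25 in the femoral artery (adjusted p 0.113) and −0.90 ± 0.29 in the carotid artery (0.180). Their difference was −1.71 ± 0.38 (adjusted p 0.337).

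Dusp1, which acts on p38 and JNK, was highest in carotid control replicate 2 (331 CPM) and lay between 96.8 and 189 CPM elsewhere. All carotid controls were above all femoral controls for it (0.62 ± 0.23, edgeR adjusted p 0.160). Dusp6, a cytoplasmic ERK phosphatase, had changes of 0.27 ± 0.17 (femoral) and −0.19 ± 0.19 (carotid), and a transcript on the opposite strand with 16.1% of its counts makes its level uncertain. Dusp2, found mainly in immune cells, had 0.73 ± 0.38 and 0.23 ± 0.42, with overlap in both vessels.

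Feedback genes outside the DUSP family were led by Socs3, the inhibitor of cytokine receptors that signal through STAT3 (NCBI gene 12702, on the minus strand of chromosome 11 at 117966079 to 117970342 in GRCm38). Its level was 116, 82.9 and 75.3 CPM in femoral controls, 245, 206 and 135 in femoral knockouts, 139, 169.6 and 115 in carotid controls and 179.7 and 95.7 in carotid knockouts. All femoral knockouts lay above all femoral controls, and the carotid groups overlapped. The femoral change of Socs3 was 1.10 ± 0.28 (edgeR, adjusted p 0.0656), and 0.90 ± 0.30 without femoral knockout replicate 1.

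Ier3, a stress-induced protein that affects cell survival (NCBI gene 15937, on the plus strand of chromosome 17 at 35821713 to 35822911 in GRCm38), was at 39.6, 34.9 and 31.5 CPM in femoral controls, 80.2, 71.7 and 50.9 in femoral knockouts, 52.7, 71.0 and 43.6 in carotid controls and 63.4 and 38.6 in carotid knockouts. The femoral groups were free of overlap and the carotid groups overlapped. Its femoral change was 0.94 ± 0.23 (edgeR, adjusted p 0.0610) and its carotid change −0.13 ± 0.26 (0.875). The difference between them was −1.07 ± 0.35 (adjusted p 0.489), beside −1.14 ± 0.38 for Csrnp1 (0.489).

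Zfp36, which encodes the mRNA decay factor tristetraprolin, was at 91.6, 75.2 and 83.4 CPM in femoral controls, 121, 108 and 95.3 in femoral knockouts, 103, 247 and 78.6 in carotid controls and 110.1 and 78.5 in carotid knockouts. Every femoral knockout lay above every femoral control, and carotid control replicate 2 lay above all libraries. Btg2, an antiproliferative factor that also acts in mRNA decay, peaked in the same library at 265 CPM and lay between 65.9 and 132 CPM elsewhere.

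Gadd45g, a growth arrest and stress gene, was at 44.7, 38.6 and 37.7 CPM in femoral controls, 47.9, 41.8 and 36.7 in femoral knockouts, 28.8, 36.9 and 44.6 in carotid controls and 33.2 and 27.2 in carotid knockouts. Both carotid knockouts lay below all femoral knockouts, with a difference of −0.48 ± 0.18 (edgeR, adjusted p 0.173). Its relative Gadd45b had a femoral change of 0.41 ± 0.16 (adjusted p 0.193). Ier2, Ier5 and the kinase gene Sik1 had femoral changes of 0.12, 0.09 and 0.38 and carotid changes of −0.74, −0.18 and −0.18, and none of these passed.

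Among the effectors, Arc fell with Nrf3 loss over both vessels. Arc encodes a cytoskeleton-associated protein best known at synapses (NCBI gene 11838, on the minus strand of chromosome 15 at 74669081 to 74672570 in GRCm38), and it was at 10.8, 12.6 and 19.9 CPM in femoral controls, 8.16, 2.73 and 7.81 in femoral knockouts, 33.5, 38.7 and 18.9 in carotid controls and 5.61 and 10.1 in carotid knockouts. In each vessel all knockouts lay below all controls. The mean change was −1.58 ± 0.33 (edgeR, adjusted p 0.0215), with −1.21 ± 0.42 in the femoral artery (0.149) and −1.95 ± 0.50 in the carotid artery (0.101). Without carotid control replicate 2 the mean change of Arc was −1.47 ± 0.34 (adjusted p 0.0459), and with carotid knockout 1 left out Arc no longer passed (adjusted p 0.110). With the replicate block by title numbers, which also ties the carotid libraries, the mean change of Arc was −1.78 ± 0.25 (adjusted p 0.0125).

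Ptgs2, the inducible cyclooxygenase of prostaglandin synthesis (NCBI gene 19225, on the plus strand of chromosome 1 at 150100031 to 150108234 in GRCm38), separated the 2 control arteries most clearly by adjusted p. It was at 45.1, 39.6 and 34.5 CPM in femoral controls, 117, 75.6 and 48.7 in femoral knockouts, 206, 124 and 211 in carotid controls and 73.2 and 99.8 in carotid knockouts. All carotid controls lay above all other libraries, the femoral knockouts above the femoral controls, and the carotid knockouts below the carotid controls. Ptgs2 was higher in the carotid controls by 2.18 ± 0.31 (edgeR, adjusted p 0.00217) and by 2.40 ± 0.30 without carotid control replicate 2 (0.00291). With Nrf3 loss its changes were 1.02 ± 0.30 in the femoral artery (adjusted p 0.0936) and −1.06 ± 0.34 in the carotid artery (0.183).

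The femoral values of Ptgs2 and Dusp5 leaned on femoral knockout replicate 1, without which they were 0.65 ± 0.26 and 0.44 ± 0.19. The difference between vessels was −2.08 ± 0.45 for Ptgs2 (edgeR, adjusted p 0.321). Rhob, the most abundant member per kilobase, was at 371, 340.0 and 353 CPM in femoral controls, 275, 283 and 326 in femoral knockouts, 374, 519.5 and 317 in carotid controls and 335 and 360.2 in carotid knockouts. Its femoral knockouts lay below the femoral controls, with a change of −0.27 ± 0.16 (adjusted p 0.392), and its carotid groups overlapped.

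Genes that act before and after this set were read from lists of related genes, beside 2.51% of all genes called in the femoral artery, 0.923% in the carotid artery and 6.31% over both. No gene of 14 inducers (Srf, the Elk factors, Creb1 and coactivators) passed in any of the 6 comparisons in edgeR, while DESeq2 called 1 as lower in the carotid knockouts, 1 as lower over both vessels and 1 as higher in the carotid controls than in the femoral ones. Of 25 MAP kinase pathway genes 4 rose in the femoral knockouts, the stress kinase Mapk13 (1.35 ± 0.26), Rps6ka1, Mapkapk3 and Mapkapk2, and none passed in the carotid artery. The 22 other repressors of this signalling held 1 that fell in each vessel, Dusp8, a JNK and p38 phosphatase, with changes of −0.85 ± 0.12 and −0.89 ± 0.13. Dusp8 had means of 35.4 ± 2.36 CPM (SD, n = 3) in femoral controls and 19.7 ± 2.42 CPM (n = 3) in femoral knockouts, and 23.0 ± 2.44 (n = 3) and 12.4 ± 0.602 CPM (n = 2) in the carotid artery. Its adjusted p in edgeR was 0.00775 (femoral) and 0.0152 (carotid).

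Among 35 tested genes of other early responses, Per1 (1.01 ± 0.18) and Pim1 (1.20 ± 0.24) rose and Hes1 fell in the femoral knockouts, and none passed in the carotid artery. Of 15 other bZIP factors none passed in either vessel in the main fit. In the femoral knockouts DESeq2 called 4 as higher (7.8% of all genes), and the replicate block by title numbers 3 (5.73%). Neither called any of them in the carotid artery. Of 28 tested genes known as AP-1 or EGR targets, 3 rose in the femoral knockouts: Timp1 (1.22 ± 0.19), an inhibitor of metalloproteases, Mmp3 (1.80 ± 0.37), a matrix metalloprotease, and the cytokine Lif (1.77 ± 0.39). In the carotid knockouts the matricellular gene Cyr61 fell, with a change of −1.59 ± 0.23 (edgeR, adjusted p 0.0115), from 462 ± 123 CPM (SD, n = 3) to 153 ± 40.2 CPM (n = 2). The median change of the 28 targets was 0.17 in the femoral and −0.25 in the carotid artery.

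Over both vessels, 2 of the MAP kinase pathway genes rose and 1 fell (Hras), 1 of the bZIP factors rose (Batf2), 1 of the repressors rose and 2 fell, 6 of the other early response genes rose and 1 fell, and among the targets Mmp3 rose and Cyr61 fell. Between the vessels, 1 target was higher and 5 lower in the carotid controls, where 6.21% of all genes were called. In the carotid knockouts 1 was higher and 8 lower, where 4.91% of all genes were called. The lower ones included Pdgfa and Plau each time. The count of 5 became 2 or 3 with any 1 control library left out, and 2 with the muscle covariate described below. The shares of all genes in those fits are not given here. In the main edgeR fit no list had a member that passed for the difference in knockout effect. DESeq2 called 4 targets and 1 bZIP factor as lower for that difference, beside 0.78% of all genes. edgeR called 1 target as lower with no filter on low counts, and 1 with the replicate block by title numbers. The shares of all genes in those edgeR fits are not given here. Without femoral control replicate 1, 2 or 3, or femoral knockout replicate 1 or 2, 0 kinase genes, 0 or 1 targets and 0 or 1 other early response genes rose. The fall of Hes1 was lost each time, and also without carotid control replicate 1 or 3 or carotid knockout replicate 1 or 2. The replicate block by title numbers lost the fall of Hes1 too. The kinase list's median in the femoral leave-outs was 0.049 to 0.078 against 0.05 with all libraries. In those 5 femoral leave-outs 0.369% to 0.861% of all genes were called. Without femoral knockout replicate 3, 5 kinase genes, 7 targets and 8 other early response genes rose, and 1 of the last list fell. With the muscle covariate described below, 0 kinase genes, 0 other early response genes and 1 target passed in the femoral artery (0.618% of all genes). The carotid calls of Dusp8 and Cyr61 were both lost without carotid knockout replicate 1, and that of Dusp8 without replicate 2. Both calls were also lost when the carotid libraries were fitted alone.

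Heat-shock genes, chaperones induced by another fast stress response, were lower in the knockouts of both vessels. Their 13 members summed to 3925 to 6021 CPM in the 6 controls and 3256 to 3911 CPM in the 5 knockouts, without overlap. All 13 changes were negative in each vessel, with medians of −0.50 and −0.63, and 1 of 13 passed in the femoral artery (Hsph1, −1.08 ± 0.21, not without femoral control or knockout 1 or 2) and none in the carotid artery. The femoral median was −0.28 without femoral control replicate 2, the library with the highest heat-shock sum. It was −0.62 to −0.43 without any other library. Over both vessels 7 fell, led by Hsph1 (−1.05 ± 0.16, edgeR adjusted p 0.00631) and the inducible Hspa1a (−1.60 ± 0.34, 0.0243) and Hspa1b (−1.61 ± 0.35, 0.0257). That count was 1 without femoral knockout replicate 1 or 2 or carotid knockout replicate 1 or 2, 4 without femoral control replicate 1 or 2, and 5 to 8 without any of the others. DESeq2 called 2 femoral, 5 carotid and 11 mean falls (beside 7.8%, 4.13% and 10.7% of all genes), and edgeR with no filter on low counts called 4, 4 and 9 (3.16%, 1.25% and 4.8% of all genes). With the muscle covariate the counts were 0, 0 and 4 (3.1% of all genes for the mean). The heat-shock counts with 1 library left out are given without the share of all genes in the same fit.

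**Figure D4:**
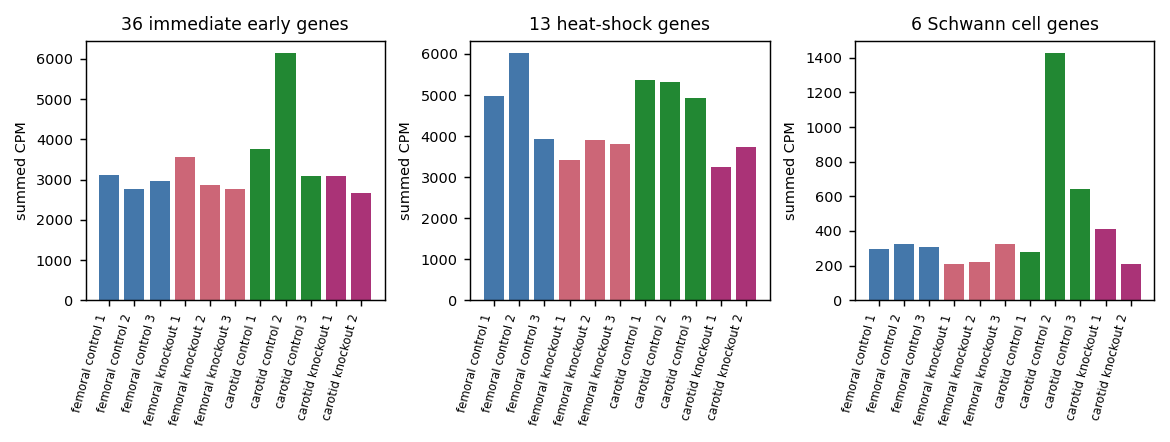
Summed CPM (linear axis from 0) of the 36 immediate early genes, 13 heat-shock genes and 6 Schwann cell genes, 1 bar for each library. Carotid control 2 stands out for the first and the last set but not for the heat-shock genes, whose sums are lower in the 5 knockouts than in the 6 controls.

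Sums of markers of other cell types differed between groups. Over 8 T and NK cell genes the sum was 11.3 to 24.8 CPM in the femoral controls and 44.2 to 56.2 CPM in the femoral knockouts, and 4.48 to 11.4 against 51.3 to 54.6 CPM in the carotid artery. Over 7 B and plasma cell genes it was 16.1 to 28.4 against 73.0 to 204 CPM and 8.49 to 14.7 against 117 to 140.2 CPM. Neutrophil genes summed to 65.8 to 167 and 168 to 501 CPM in femoral controls and knockouts, and macrophage genes to 2462 to 3184 and 3076 to 5084 CPM. The femoral macrophage sums overlapped. In the carotid artery the neutrophil and macrophage sums both overlapped, at 91.1 to 277 and 249.7 to 379 CPM for neutrophils and 3308 to 5005 and 3639 to 4829 CPM for macrophages. Skeletal muscle genes summed to 561 to 5449 CPM in the femoral controls and 182 to 1613 CPM in the femoral knockouts, and to 22.1 to 688 and 7.58 to 462 CPM in the carotid groups. Fibroblast genes summed to 6080.2 to 6644 CPM in femoral controls and 5081 to 5552 CPM in femoral knockouts, without overlap, and erythrocyte genes to 2749 to 8217 and 1754 to 2984 CPM, with overlap. The control arteries stood apart in the sums of fibroblast genes (4568 to 5833 CPM in the carotid), of endothelial genes (1566 to 1894 CPM in the femoral and 1013 to 1549 CPM in the carotid artery) and of adipocyte genes (821 to 1595 and 180.0 to 694 CPM). They also stood apart in B and plasma cell genes, lower in the carotid (8.49 to 14.7 against 16.1 to 28.4 CPM). Macrophage genes were higher in the carotid controls, without overlap (3308 to 5005 against 2462 to 3184 CPM). The part of any of these cell types in Socs3, Ier3, Ptgs2 or any other member was not tested, apart from a fit with the level of the muscle genes as a covariate, which left Ptgs2 as the single call between control arteries and called no member in either vessel alone.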

How the data were processed

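Polyadenylated RNA of injured arteries was sequenced as paired reads, per the labels. The authors deposited 1 table of unnormalized counts for 48897 genes, with a column for each of the 11 libraries. HISAT2, HTSeq, DESeq, DESeq2 and edgeR appear, per the submitters' processing notes, with neither versions nor roles, and the strand setting is not given in the sources used here. The notes name mm9, but positions match GRCm38: of 39064 genes joined by NCBI ID to RefSeq GRCm38.p6, 99.8% overlapped it, as did 36 of 36 members.

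Groups followed the sample labels. edgeR 4.0.16 (R 4.3.3) fitted 1 quasi-likelihood model with 4 group means over all libraries, with trimmed mean of M-values scaling, 21343 genes kept by filterByExpr (43.6%), 7 residual degrees of freedom and a common biological coefficient of variation of 25.6%. Tests were two-sided, Benjamini-Hochberg adjusted over all genes tested, with a threshold of 0.05. The SE was taken as the size of the log2 change over the root of its F statistic, and group errors are SD. Alternatives were other scaling factors, DESeq2 1.42.0, no filter, the compared groups alone, a replicate block, a covariate from skeletal muscle genes and each library left out. limma 3.58.1, Python 3.11.15, pandas 2.3.3 and matplotlib 3.10.9 served as support. Scripts were tested on simulated data.

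Deviations from group means of same-numbered control and knockout libraries correlated at 0.292, 0.339 and 0.185 in the femoral artery (−0.351 to 0.0626 for other pairs). The main fit had no block, so its femoral tests were unpaired, and the replicate block was fitted as an alternative. Carotid title numbers gave −0.0922 and −0.189. Carotid control 3 and carotid knockout 2, which share a description number, gave 0.0894. With 2 carotid knockouts, each control's correlations with them are equal and opposite, so this check cannot settle the carotid pairing. The replicate-block fits used the numbers as blocks in both vessels, so their mean effects rest on the carotid numbers too.

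Members and lists were chosen with earlier results of these data known. Values in every library are given for Fos, Fosb, members called in any comparison and the 5 members of smallest p in each, with some others where their role is described, and from the lists for called genes.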

Additional observations from a re-analysis of the deposited data

Results flagged for a closer look

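In 3 of the 36 members every femoral knockout library lay above every femoral control, and every carotid knockout lay below every carotid control, a pattern found in 0.6% of the 21343 genes tested. The carotid minus femoral knockout effect was −0.7117 for Myc, −1.7092 for Dusp5 and −2.0758 for Ptgs2 on the log2 scale. In edgeR none of these differences passed (adjusted p 0.489, 0.337 and 0.321), where 1 gene of 21343 did (0.00469%). DESeq2 called those of Dusp5 and Ptgs2. Without carotid control replicate 2 the differences were −0.79, −1.83 and −2.30, and without femoral knockout replicate 1 they were −0.60, −1.34 and −1.70.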

How the results depend on the processing

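Of 728 log2 changes of named members recomputed under the alternatives, 643 kept their direction and their side of the threshold, 59 passed it newly, 22 no longer did and 4 turned direction. Those 4 belong to small differences: the femoral change of Fos was 0.030 without femoral knockout replicate 3 (−0.59 to 0.030 with any 1 library left out), Fos between knockout arteries was 0.072 under the replicate block with the description numbers and −0.32 to 0.31 with 1 library left out (0.31 without femoral knockout replicate 1), and Fosb between knockout arteries was −0.047 with the muscle covariate. The members called moved as follows. DESeq2 called 6 (femoral), 5 (carotid), 2 (difference), 5 (mean effect) and 2 (knockout arteries), against 0, 0, 0, 2 and 0 in edgeR. With no filter the femoral, carotid and mean counts were 4, 2 and 5, and that of the control arteries was 5 against 3. With the compared groups alone 1 femoral member (Ier3) was called, and this fit could not be made for the difference and the mean, which use all libraries. The muscle covariate gave 4 for the mean effect and 1 for the control arteries. Leaving out 1 library gave 0 to 5 femoral, 0 to 1 carotid, 0 to 6 mean, 1 to 6 control-artery and 0 to 1 knockout-artery calls. The counts with no filter, with the compared groups alone and with the muscle covariate are given here without the share of all genes. So are the ranges with 1 library left out, and none of these is read as a result about the members. The other scaling factors changed no count of called members by more than 1.5 times.

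The replicate block with the title numbers gave 3 femoral calls and 5 for the mean effect (Fosb, Jun, Atf3, Egr3 and Arc; 6.12% of all genes), and between the control arteries Fosb had an adjusted p of 0.0529. In the sample descriptions carotid knockout replicate 2 bears another number, and pairing by those numbers gave 7 femoral, 1 carotid and 5 mean calls, where 5.91%, 0.923% and 7.49% of all genes were called. The cause of these shifts was not tested. Npas4, with 41 to 294 counts in a library, had the fewest counts of the members.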
